A study of Brachypodium distachyon with 89 samples.

Results

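The DnaJ genes code for co-chaperones of Hsp70 and for proteins that share a domain with them. They were chosen here by text alone: of the 24467 genes in the deposited table of Brachypodium distachyon, 112 had a description that contained the word DnaJ. No measured value entered this rule, though it was set with earlier results of these data known. Of the 112 descriptions, 45 also named heat shock and 84 named a domain. By their locus names, 40 of the genes lie on chromosome 1, 28 on chromosome 2, 22 on chromosome 3, 14 on chromosome 4 and 8 on chromosome 5, and start and end positions were not used here. The 112 genes match 77 genes of Arabidopsis, and 60 of them share 1 of 25 matches with another member, so that reads of near copies may have been divided between them. All 112 passed the filter of at least 1 CPM (reads scaled to the library size) in 3 libraries, as did 24109 genes in all. 89 of them reached a mean of 15 CPM in some group.

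A J protein binds a protein that is not folded, hands it to Hsp70, and through its J domain makes Hsp70 split ATP and close on that client, which a nucleotide exchange factor later helps to release. Type A members carry a J domain, a glycine-rich stretch and a zinc finger, type B members lack the zinc finger, and many others keep only the J domain and fix Hsp70 to a place such as the mitochondrial import channel, the endoplasmic reticulum or a clathrin coat. In plants, the chloroplast holds further members, and some proteins described as DnaJ, such as BSD2, LQY1 and PSA2, keep the zinc finger without a J domain and act in the assembly or repair of photosynthetic complexes. Roles below are those of the Arabidopsis match. A role was assigned to 50 of the 112 genes, and 62 have none here.

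RNA was sequenced from aboveground green tissue of 2 inbred ecotypes, Bd21 and Bd21-3, with no transgene or other allele. Plants were 14 days old and had grown in days of 16 h light and 8 h dark at 150 µE m−2 s−1. Submerged plants (S) stood under 30 cm of water in tanks, where 70 µE m−2 s−1 of light reached them, low light controls (LL) stood in tanks without water beside them, and normal growth controls (NG) stayed at 150 µE m−2 s−1. Submergence began before the night that preceded the first sampling, and tissue was taken at dawn (ZT0, hours after lights on), midday (ZT8), dusk (ZT16), midnight (ZT20) and the next dawn (ZT24). For each library 5 plants were pooled. The 30 groups of ecotype, treatment and time had 3 libraries each, except Bd21 in LL at ZT24 with 2. Submerged plants collected at a given time had shared a tank, so tank and time cannot be told apart. S and LL plants stood in different tanks, so in S over LL tank and treatment cannot be told apart either. The p-values measure the spread between these pools. In bulk tissue, fewer cells of a type and less RNA per cell cannot be told apart.

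The 89 libraries held 3896851 to 16044727 reads (median 9037308). The DnaJ genes took 0.367 to 0.604% of the summed CPM of a library. Replicates correlated at r = 0.913 to 0.993 across genes, and the lowest values belonged to replicate 3 of Bd21 in LL at ZT16, so results that change without that library are given below with its value left out. The summed level of 14 green tissue markers was 17429 to 62032 CPM in LL and 1403 to 25537 CPM in S of Bd21, and 19505 to 57975 CPM in LL and 2678 to 13873 CPM in S of Bd21-3. All 14 were at 1 CPM or more in some library. Summed levels of 4 root markers stayed at or under 30.8 CPM in every library. Summed markers of guard cells and of xylem and phloem also had lower medians in S than in LL, 47.4 against 97.5 CPM and 13.4 against 142 CPM in Bd21. Gene by gene, the median log2FC of S over LL in Bd21 was -1.04 in each set. By the call defined below, 2 of 10 guard cell markers fell and 1 rose at some time in Bd21. Of the 4 xylem and phloem markers 1 fell. The part of these shifts in the results below was not tested.

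The main question of the design is which genes differed between S and LL, plants that differ in submergence at lowered light. A gene was called a DEG where its log2FC was at least 1.5 in size, its limma p adjusted over all 24109 genes was under 5e-06, and its mean reached 15 CPM in at least 1 of the groups compared. Over both ecotypes and all 5 times, 22 of the 112 DnaJ genes were DEGs in at least 1 comparison and 90 in none. There were 79 calls in all. S and LL libraries did not overlap in any of these 79, which the limits on fold and adjusted p nearly require, so this adds no support. The calls rest on a spread estimated over all 30 groups: in a fit of only the groups compared, 78 of the 79 missed the limit on adjusted p. Of the members, 11 rose at some time, where 9.12% of all genes tested did so, and 12 fell, where the share over all genes was 11.2%. These counts are 9.82% and 10.7% of the members, which is near the shares over all genes. Bradi2g48890 was counted in both directions. Of the 11 that rose, 9 did so in both ecotypes and 2 in Bd21, while of the 12 that fell, 6 did so in both, 1 in Bd21 and 5 in Bd21-3. The log2FC of the 90 uncalled members lay between -2.34 and 2.52 in Bd21 and between -2.37 and 2.54 in Bd21-3.

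At single times the counts of members that met the call were small. In Bd21, 5 members rose at ZT0 (3.38% of all genes did), 4 at ZT8 (3.65%), 6 at ZT16 (3.86%), 1 at ZT20 (2.63%) and 3 at ZT24 (2.6%). In the same ecotype 1 fell at ZT0 (3.02% of all genes), 1 at ZT8 (2.89%), 2 at ZT16 (3.93%), 4 at ZT20 (4.39%) and 5 at ZT24 (4.16%). In Bd21-3, 6 members rose at ZT0 (4.24% of all genes), 6 at ZT8 (3.21%), 6 at ZT16 (3.73%), 4 at ZT20 (3.28%) and 3 at ZT24 (2.84%). There, 3 fell at ZT0 (4.32% of all genes), 4 at ZT8 (5.04%), 4 at ZT16 (4.67%), 8 at ZT20 (5.54%) and 3 at ZT24 (4.71%). The median log2FC of the 112 members went from -0.03 at ZT0 to 0.21 at ZT20 in Bd21, beside -0.08 and 0.02 over all genes, and from -0.06 to 0.29 in Bd21-3, beside -0.12 and -0.01. Leaving out 1 library moved 8 of the 20 counts by more than 1.5 times. In Bd21 the count fallen became 0 at ZT8 without replicate 2 or 3 of LL or of S and 1 at ZT16 without replicate 1 of LL or replicate 2 of S, and the count risen became 0 at ZT20 without replicate 1, 2 or 3 of LL or replicate 1 or 2 of S and 1 at ZT24 without replicate 1 of LL. In Bd21-3 the count fallen became 5 at ZT0 without replicate 3 of S, 1 at ZT8 without replicate 1 of S, 4 or 5 at ZT20 without replicate 2 or 3 of LL, and 5 at ZT24 without replicate 3 of LL. In all, 22 of the 79 calls are lost when 1 library is left out, and each of these is stated with its gene.

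**Figure D1:**
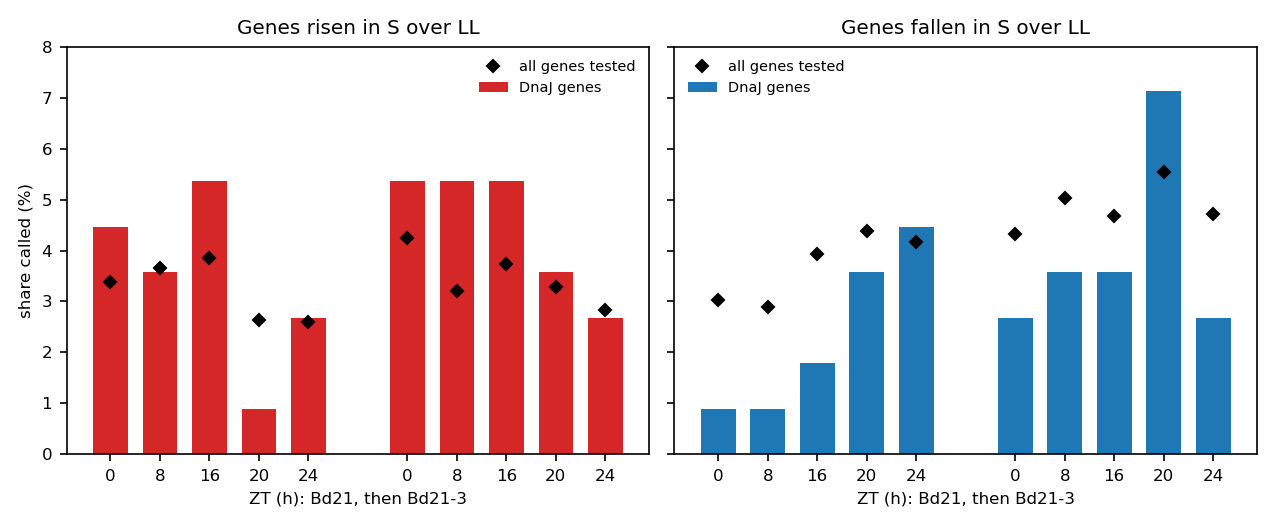
Share of genes called at each time (ZT, h) in S over LL, in percent, with risen genes on the left and fallen genes on the right, Bd21 before Bd21-3. Bars are the 112 DnaJ genes and diamonds all 24109 genes tested. The bars lie on both sides of the diamonds, and the tallest is the 8 members that fell in Bd21-3 at ZT20.

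**Figure D2:**
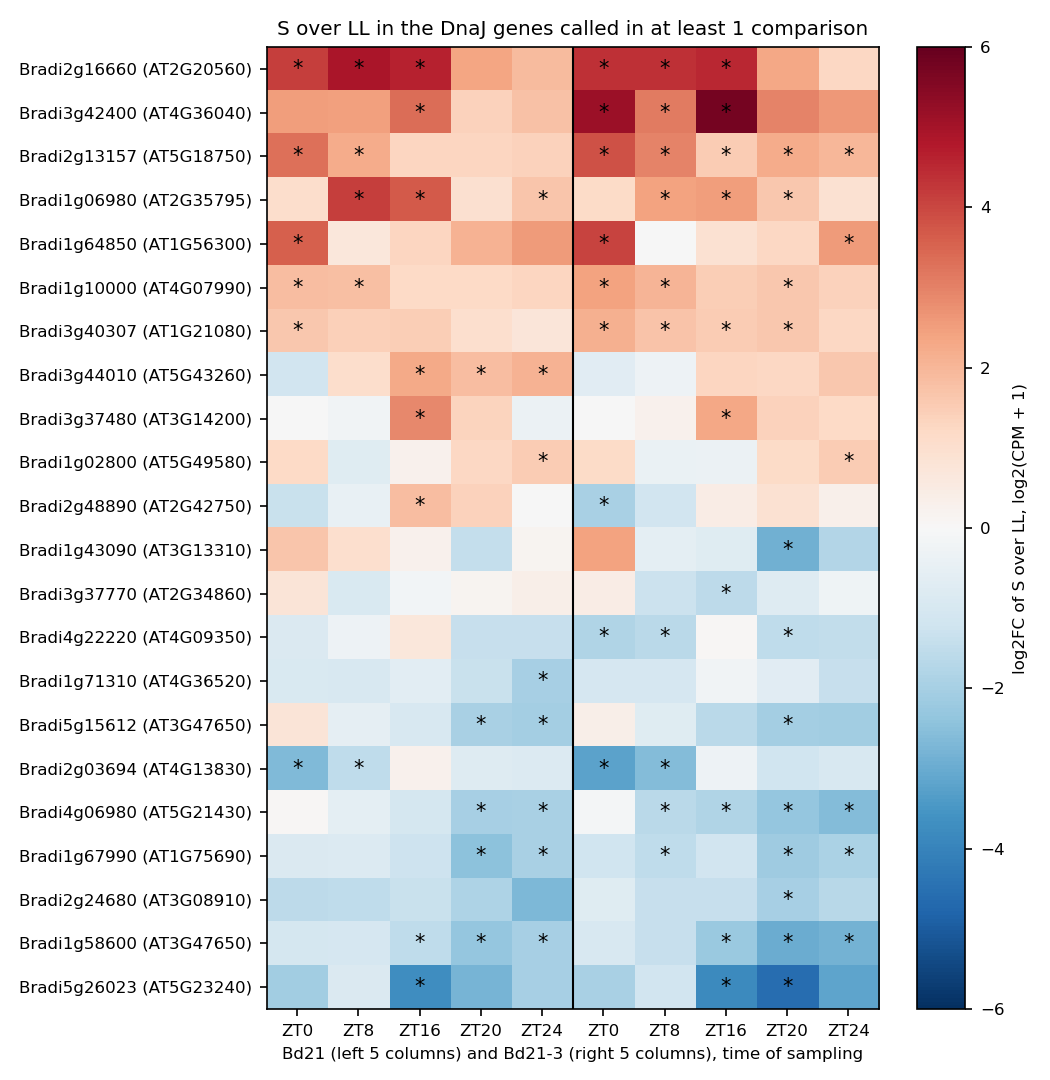
The log2FC of S over LL on the log2(CPM + 1) scale for the 22 DnaJ genes called in at least 1 of the 10 comparisons, with the Arabidopsis match in parentheses. Columns are times in Bd21 (left of the line) and Bd21-3 (right), and an asterisk marks a call. Bradi3g42400 reached 5.74 in Bd21-3 at ZT16 and Bradi5g26023 -4.55 at ZT20.

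Class counts below stand beside 9.12% of all genes tested that rose and 11.2% that fell at some time in either ecotype. The classes were set with earlier results of these data known. Among the 8 genes matched to type B J proteins of the cytosol, 1 rose and 1 fell, and the median log2FC over times was 0.12 in Bd21 and 0.24 in Bd21-3. Bradi2g16660, matched to AT2G20560, rose the most. Its level in Bd21 at ZT8 was 117, 127 and 273 CPM in S and 2.83, 7.44 and 3.94 CPM in LL. In Bd21-3 at ZT8 it was 31.2, 83.3 and 147 CPM in S and 2.46, 2.44 and 2.76 CPM in LL. The S libraries lay far above the LL libraries in both ecotypes, and among the S libraries themselves the values spread several fold. The log2FC in Bd21 was 4.13 (standard error 0.46, adjusted p = 8.6e-12) at ZT0, 4.89 (standard error 0.46, adjusted p = 2.0e-14) at ZT8 and 4.59 (standard error 0.46, adjusted p = 1.7e-13) at ZT16. In Bd21-3 it was 4.38, 4.38 and 4.54 at these times, with an adjusted p of at most 8.2e-13. At ZT20 the S libraries were at 59.6, 20.2 and 27.8 CPM in Bd21 and 55.8, 15.8 and 17.5 CPM in Bd21-3, still above all LL libraries of that time, and the log2FC of 2.39 and 2.33 missed the limit on adjusted p. Over all times NG plants held 3.59 to 24.5 CPM (median 8.94) in Bd21 and 4.63 to 24.8 CPM (median 11) in Bd21-3.

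Bradi2g24680, a type B gene matched to AT3G08910, was the member of this class that fell. In Bd21-3 at ZT20 its level was 4.54, 1.05 and 5.71 CPM in S and 11.7, 23.0 and 14.4 CPM in LL. All S libraries were lower, and the log2FC was -1.98 (standard error 0.36, adjusted p = 2.5e-06). The call is lost without replicate 2 or 3 of LL or without replicate 2 of S, with a log2FC between -2.04 and -1.46 and an adjusted p of 1.6e-05 to 7.7e-04. In Bd21 at ZT24 the log2FC was -2.72 (standard error 0.40, adjusted p = 3.6e-08), at levels of 0.137, 2.14 and 0.722 CPM in S and 11.9 and 10.2 CPM in LL, which are too low for a call.

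None of the 3 genes matched to type A J proteins of the cytosol was called, with log2FC between -0.29 and 1.32 in Bd21 and between -0.54 and 1.17 in Bd21-3. All 3 match the same Arabidopsis gene, J2 (AT5G22060), and 2 of them, Bradi1g06340 and Bradi1g13640, are among the 5 DnaJ genes with the highest mean CPM in NG. Bradi1g06340 was at 196, 224 and 380.3 CPM in S, 82.9, 116 and 109 CPM in LL and 194, 206 and 190.0 CPM in NG of Bd21 at ZT8. At that time S and NG libraries overlapped and all lay above the LL libraries. Its log2FC of S over LL was 1.32 (standard error 0.19, adjusted p = 2.0e-08) in Bd21 at ZT8 and 1.17 (standard error 0.19, adjusted p = 3.3e-07) in Bd21-3 at ZT0, both under the fold limit. Bradi1g13640 was at 607, 638 and 586 CPM in S, 297, 347 and 338 CPM in LL and 217, 168 and 200.4 CPM in NG of Bd21-3 at ZT20. These 3 groups did not overlap, and the log2FC of S over LL was 0.90 (standard error 0.10, adjusted p = 9.9e-12). At the times given, the 2 genes differed in where NG stood: above LL in Bradi1g06340 and below it in Bradi1g13640.

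The 4 genes matched to J proteins of the endoplasmic reticulum and the 4 matched to type A J proteins of organelles gave no call. Log2FC ran from -1.02 to 1.36 in Bd21 and from -1.46 to 1.499 in Bd21-3 for the first class, whose median at ZT20 was 0.94 and 0.91. The highest of these values belonged to Bradi1g65480, matched to ERdj3A (AT3G08970), in Bd21-3 at ZT20, with means of 20.5 CPM in S and 6.65 CPM in LL (standard error 0.18, adjusted p = 1.7e-10). For the organelle class, log2FC ran from -0.81 to 0.51 in Bd21 and from -1.47 to 0.68 in Bd21-3. Bradi4g41060, matched to AT2G22360, a type A J protein of the chloroplast, had the lowest of these values. Its level in Bd21-3 at ZT0 was 52.8, 50.8 and 56.8 CPM in S and 147, 157 and 146 CPM in LL, and NG libraries were at 174, 159 and 159 CPM. S lay below both controls with a log2FC over LL of -1.47 (standard error 0.10, adjusted p = 1.2e-19), just short of the fold limit.

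Of the 4 genes matched to the PAM18-type subunit of the mitochondrial import motor or to the iron-sulfur co-chaperone HSCB, 1 rose. This was Bradi1g06980, matched to AT2G35795, whose protein is of the PAM18 type and would stimulate the Hsp70 that pulls proteins into the mitochondrion. In Bd21 its level at ZT8 was 48.3, 129 and 161 CPM in S against 4.32, 3.83 and 6.20 CPM in LL and 6.79, 5.66 and 6.35 CPM in NG. In Bd21-3 the level at ZT8 was 38.8, 37.9 and 32.4 CPM in S against 6.26, 4.57 and 7.47 CPM in LL. S libraries were the highest in both ecotypes, and every S library of Bd21 at ZT8 exceeded 36.4 CPM, the mean of Bd21-3. The log2FC at ZT8 was 4.15 (standard error 0.25, adjusted p = 1.5e-22) in Bd21 and 2.41 (standard error 0.25, adjusted p = 5.9e-13) in Bd21-3, and at ZT16 3.69 and 2.49. The difference between ecotypes, Bd21-3 minus Bd21, was -1.74 (standard error 0.35, adjusted p = 3.8e-04) at ZT8 and -1.20 (standard error 0.35, adjusted p = 0.017) at ZT16. At ZT0 and ZT20 of Bd21 the log2FC was 1.04 and 0.94. Calls at ZT20 in Bd21-3 (1.64) and ZT24 in Bd21 (1.65) completed its 6. The last is lost when replicate 1 or 2 of LL or of S is left out, with a log2FC between 1.54 and 1.76 and an adjusted p of 1.3e-05 to 3.1e-04.

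Among the 11 genes grouped here as matches of further J proteins of the chloroplast, 2 rose and 4 fell, and 1 gene is counted in both. J8, J11 and J20 of Arabidopsis hold little more than the J domain. The size and domains of the other matches in this class were not examined. Bradi3g42400, matched to J11 (AT4G36040), had the largest log2FC of all members. In Bd21-3 at ZT16 it was at 192, 173 and 196 CPM in S, 2.17, 0.986 and 5.88 CPM in LL and 2.62, 3.23 and 2.35 CPM in NG. In Bd21 at ZT16 it was at 29.8, 124 and 115 CPM in S and 8.02, 7.95 and 4.23 CPM in LL. S libraries were the highest in both ecotypes. The log2FC was 5.74 (standard error 0.56, adjusted p = 7.1e-14) in Bd21-3 and 3.35 (standard error 0.56, adjusted p = 6.3e-07) in Bd21. The difference of the ecotypes was 2.39 (standard error 0.79, adjusted p = 0.037). At ZT0 the log2FC was 5.12 (standard error 0.56, adjusted p = 4.3e-12) in Bd21-3, where LL libraries were at 4.93, 5.93 and 3.09 CPM, and 2.53 (standard error 0.56, adjusted p = 1.1e-04) in Bd21, where LL libraries were at 26.4, 19.4 and 27.2 CPM.

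2 calls of Bradi3g42400 rest on single libraries. That of Bd21 at ZT16 is lost without replicate 2 or 3 of S or without replicate 3 of LL, the library that stood apart, with a log2FC between 2.99 and 3.09 and an adjusted p of 2.7e-05 to 4.7e-05. That of Bd21-3 at ZT8 (3.12) is lost when any 1 of its 6 libraries is left out, with an adjusted p of 6.7e-06 to 1.2e-04. NG values of this gene in Bd21-3 at ZT8 were 0.746, 1.16 and 22.9 CPM, of which replicate 3 was far above the others. NG does not enter these contrasts.

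**Figure D3:**
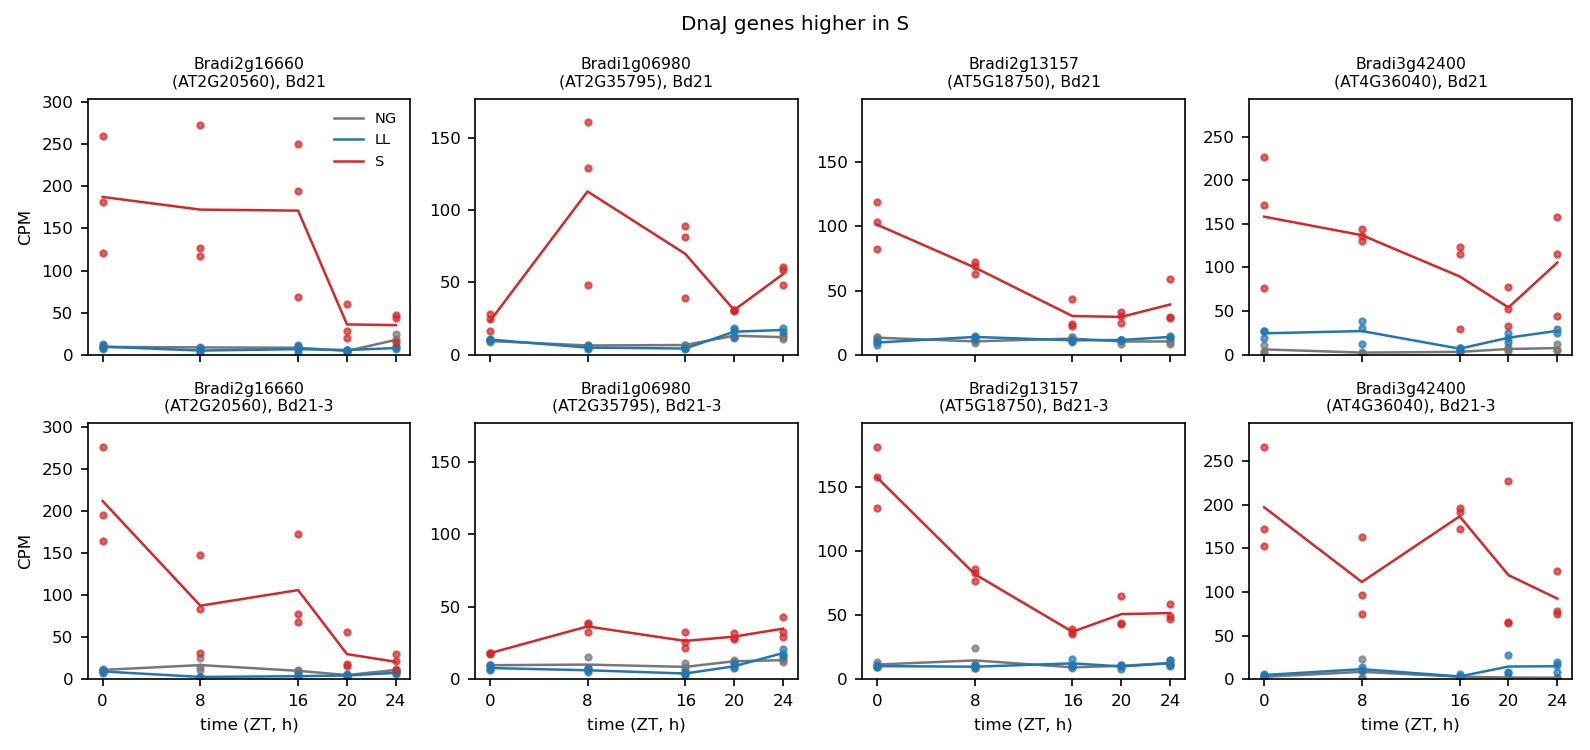
CPM of 4 DnaJ genes that rose in S, by time (ZT, h), with Bd21 in the upper and Bd21-3 in the lower row. Points are libraries, lines join group means, and colors mark NG, LL and S. S libraries of Bradi2g16660 reached 273 CPM in Bd21 at ZT8 while LL libraries there stayed at or under 7.44 CPM.

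Bradi2g03694, matched to J20 (AT4G13830), fell at ZT0 and ZT8 in both ecotypes. In Arabidopsis J20 delivers DXS, the first enzyme of plastid isoprenoid synthesis, to Hsp70. At ZT0 its level was 15.2, 16.6 and 9.41 CPM in S and 89.9, 78.2 and 103 CPM in LL of Bd21, and 9.14, 6.17 and 12 CPM in S and 82.5, 93.5 and 92.3 CPM in LL of Bd21-3. At ZT16 S libraries were at 91.0, 88.9 and 82.5 CPM in Bd21 and 80.0, 74.5 and 66.8 CPM in Bd21-3, and overlapped with LL. The log2FC at ZT0 was -2.66 (standard error 0.22, adjusted p = 2.8e-16) in Bd21 and -3.20 (standard error 0.22, adjusted p = 5.4e-20) in Bd21-3. At ZT8 it was -1.53 (standard error 0.22, adjusted p = 2.9e-08) and -2.61 (standard error 0.22, adjusted p = 3.9e-16), with a difference of the ecotypes of -1.09 (standard error 0.31, adjusted p = 0.017). At ZT16 it was 0.28 (adjusted p = 0.29) and -0.28 (adjusted p = 0.3). The call of Bd21 at ZT8 is lost without replicate 2 or 3 of LL or of S, with a log2FC between -1.47 and -1.37 and an adjusted p of 1.5e-06 to 4.4e-06.

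Bradi2g48890, another gene of this class, matched to AT2G42750, was called as fallen at ZT0 and as risen at ZT16. The second dawn, ZT24, gave no call. At ZT0 it was at 13.4, 20.2 and 19.4 CPM in S and 62.5, 67.1 and 84.6 CPM in LL of Bd21-3. At ZT16 it was at 187, 138 and 148 CPM in S, 43.0, 48.1 and 38.9 CPM in LL and 57.7, 49.4 and 49.4 CPM in NG of Bd21. S lay below LL at the first time and above it at the second, with no overlap. The log2FC was -1.96 (standard error 0.13, adjusted p = 3.5e-20) in Bd21-3 at ZT0 and 1.83 (standard error 0.13, adjusted p = 1.2e-18) in Bd21 at ZT16. The same signs without a call were seen at ZT0 in Bd21 (-1.32) and at ZT16 in Bd21-3 (0.46).

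Bradi5g26023, matched to AT5G23240, was low in every S library, and in some control libraries as well. Its 15 S libraries of Bd21 held 0.0890 to 2.04 CPM (median 0.824) and those of Bd21-3 0 to 1.46 CPM (median 0.422). Over all times, Bd21 held 0.347 to 40.2 CPM (median 5.69) in NG and 0.373 to 72.9 CPM (median 5.88) in LL. Bd21-3 held 0.835 to 78.3 CPM (median 6.29) in NG and 1.22 to 73.0 CPM (median 9.66) in LL. The log2FC of S over LL ran from -4.55 to -0.89 over times and ecotypes. LL libraries at ZT16 were at 41.0, 72.9 and 8.32 CPM in Bd21 and 9.66, 18.9 and 73.0 CPM in Bd21-3, and NG libraries at 34.1, 40.2 and 37.8 CPM and 67.1, 78.3 and 74.9 CPM. The LL libraries spread widely at this time and the NG libraries far less, and all of them exceeded every S library. At ZT16 the log2FC was -3.73 (standard error 0.49, adjusted p = 2.1e-09) in Bd21 and -3.84 (standard error 0.49, adjusted p = 8.1e-10) in Bd21-3. At ZT20 of Bd21-3 it was -4.55 (standard error 0.49, adjusted p = 3.3e-12). Since 1 is added to each CPM, these values understate the change of a gene so low in S. Without replicate 3 of LL in Bd21-3 at ZT16 the log2FC there was -3.06 (adjusted p = 7.9e-07), and the call is lost because the LL mean then fell short of 15 CPM.

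Bradi1g43090, matched to AT3G13310, was called in 1 comparison. In Bd21-3 at ZT20 it was at 3.71, 0.738 and 0.136 CPM in S and 8.99, 18.4 and 18.1 CPM in LL, with all S libraries lower and a log2FC of -2.88 (standard error 0.52, adjusted p = 3.0e-06). The call is lost without replicate 2 or 3 of LL or of S, with a log2FC between -2.74 and -2.44 and an adjusted p of 7.0e-05 to 2.8e-04. At ZT0 of the same ecotype S libraries were the higher ones, 18.7, 33.1 and 34.5 CPM against 4.71, 4.51 and 4.05 CPM, with a log2FC of 2.41 (standard error 0.52, adjusted p = 7.3e-05) that missed the limit on adjusted p.

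**Figure D4:**
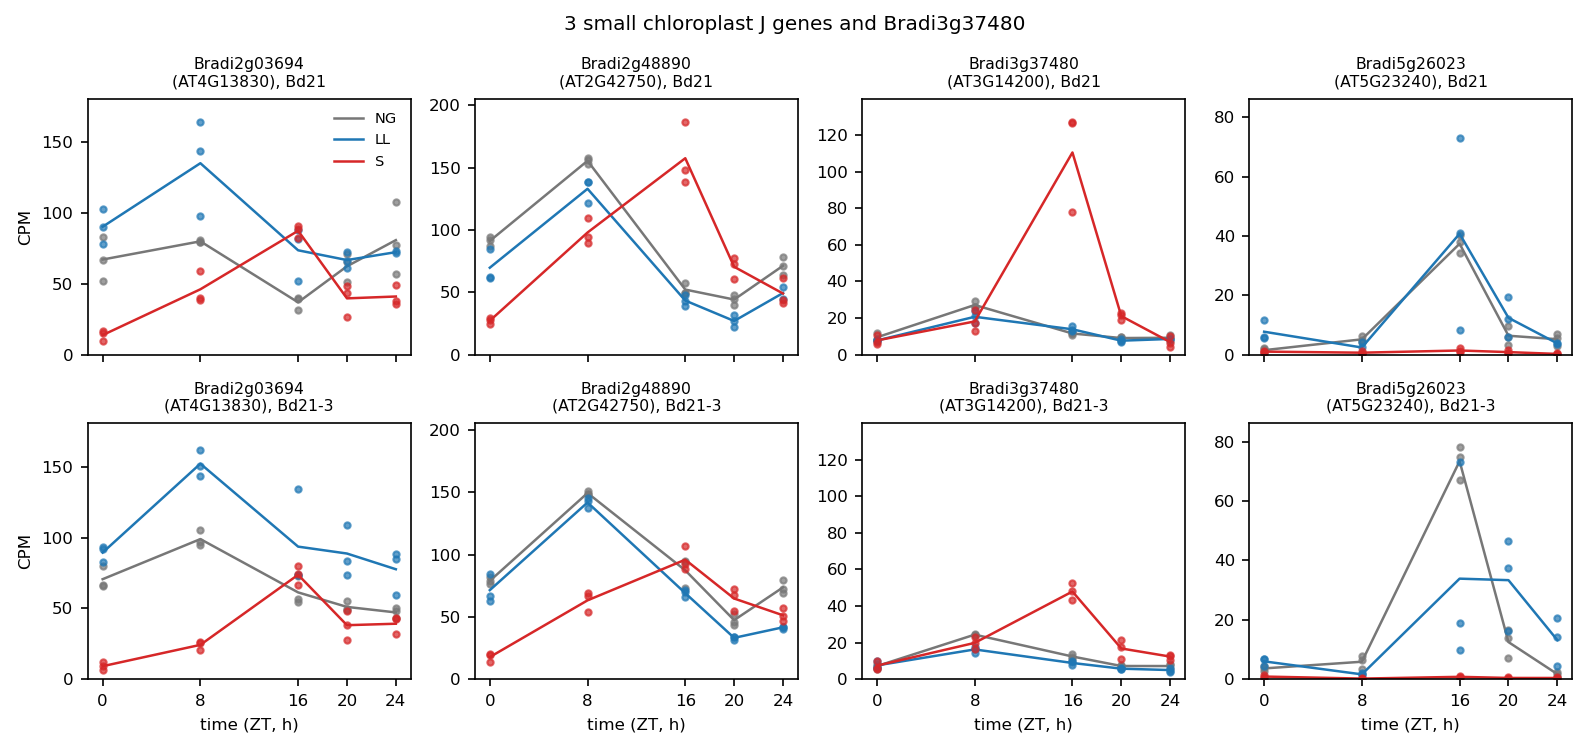
CPM of 3 genes of the chloroplast J class, called small in the title, and of Bradi3g37480 by time (ZT, h). Bd21 is in the upper and Bd21-3 in the lower row. Points are libraries, lines join group means, and colors mark NG, LL and S. In S, Bradi2g03694, Bradi2g48890 and Bradi3g37480 were highest at ZT16 in both ecotypes, and Bradi5g26023 stayed at or under 2.04 CPM.

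Of the 7 genes matched to factors of photosynthetic complexes or of chloroplast division, 6 fell in at least 1 ecotype and none rose. Over all genes tested, 11.2% fell and 9.12% rose at some time. This class, like the others, was set with earlier results of these data known. The median log2FC over times was -0.98 in Bd21 and -1.5 in Bd21-3, and at ZT20 it was -1.92 and -2.03. Of these 7, 4 fell in Bd21 and 6 in Bd21-3, beside 8.42% and 9.95% of all genes. In Bd21, 0, 0, 1, 4 and 4 of the 7 fell from ZT0 to ZT24, beside 9, 12, 2, 4 and 6 of the 14 green tissue markers. The uncalled times were not without change. The median log2FC of the 7 in Bd21 was -0.87 at ZT0 and -0.81 at ZT8, and that of the markers -2.05 and -2.26. In Bd21-3, 1, 3, 3, 5 and 3 of the 7 fell from ZT0 to ZT24, beside 10, 13, 3, 6 and 6 markers. The part of green tissue in these falls was not tested.

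2 of these genes match BSD2 (AT3G47650), a zinc finger protein needed to assemble Rubisco. Bradi1g58600 is among the 5 DnaJ genes with the highest mean CPM in NG. At ZT20 it was at 24.5, 16.5 and 23.9 CPM in S, 98.1, 105 and 130.2 CPM in LL and 188, 238 and 179 CPM in NG of Bd21, and at 16.4, 15.0 and 11.8 CPM in S, 104, 137 and 118 CPM in LL and 209, 143 and 232 CPM in NG of Bd21-3. The order S below LL below NG held for every library in both ecotypes. The log2FC of S over LL at ZT20 was -2.32 (standard error 0.20, adjusted p = 5.7e-16) in Bd21 and -2.98 (standard error 0.20, adjusted p = 7.6e-21) in Bd21-3. It was -1.06 and -0.94 at ZT0, and -2.0 and -2.83 at ZT24. The call of Bd21 at ZT16 (-1.53) is lost without replicate 1 of LL or replicate 2 of S, with a log2FC between -1.47 and -1.21 and an adjusted p of 9.7e-08 to 1.1e-06.

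The second BSD2 match is Bradi5g15612. At ZT20 it was at 2.62, 3.49 and 3.89 CPM in S and 16.3, 15.5 and 14.2 CPM in LL of Bd21, and at 3.51, 3.58 and 2.31 CPM in S and 14.6, 19.4 and 13.6 CPM in LL of Bd21-3. All S libraries were lower, with a log2FC of -1.92 (standard error 0.22, adjusted p = 3.6e-11) and -2.03 (standard error 0.22, adjusted p = 4.9e-12). Both calls are lost on the level limit when 1 LL library is left out, replicate 1 in Bd21 and replicate 2 in Bd21-3, where the log2FC remains -1.88 (adjusted p = 3.6e-09) and -1.88 (adjusted p = 2.1e-09). At ZT0 of Bd21, S libraries of this gene were above LL, at 28.4, 18.3 and 19.3 CPM against 12.1, 13.6 and 11.5 CPM, and the log2FC of 0.76 (standard error 0.22, adjusted p = 0.0031) missed the limits.

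Bradi1g67990 matches LQY1 (AT1G75690), a zinc finger protein that takes part in the repair of photosystem II. At ZT20 it was at 26.4, 24.5 and 21.8 CPM in S and 131, 141 and 143 CPM in LL of Bd21, and at 38.6, 34.7 and 28.1 CPM in S and 138, 171 and 138 CPM in LL of Bd21-3. S libraries lay far below LL in both. The log2FC at ZT20 was -2.47 (standard error 0.14, adjusted p = 1.0e-23) and -2.11 (standard error 0.14, adjusted p = 7.9e-21), and at ZT24 -1.94 and -1.89. At ZT8 Bd21-3 had -1.51 (standard error 0.14, adjusted p = 1.7e-14), a call that is lost without replicate 3 of LL or replicate 1 of S, with a log2FC between -1.43 and -1.41 and an adjusted p of 1.0e-11 to 1.1e-11.

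Bradi3g37770 matches PSA2 (AT2G34860, also EDA3), a zinc finger protein of photosystem I assembly. In Bd21-3 at ZT16 it was at 21.5, 19.3 and 19.2 CPM in S and 58.6, 68.7 and 56.2 CPM in LL. In Bd21 at ZT16 it was at 61.3, 34.6 and 50.8 CPM in S and 57.0, 49.8 and 51.8 CPM in LL. The S libraries were lower in Bd21-3 and overlapped with LL in Bd21. The log2FC was -1.56 (standard error 0.15, adjusted p = 2.2e-14) in Bd21-3 and -0.15 (standard error 0.15, adjusted p = 0.42) in Bd21, and the difference of the ecotypes was -1.42 (standard error 0.21, adjusted p = 8.9e-07). Without replicate 2 of LL the value in Bd21-3 was -1.48 (adjusted p = 1.3e-11), which is under the fold limit.

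2 further genes match subunits of the chloroplast NDH complex, which carries electrons around photosystem I. Bradi4g06980, matched to AT5G21430, was at 139, 122 and 141 CPM in S and 133, 119 and 137 CPM in LL of Bd21 at ZT0, and at 17.6, 25.7 and 17.0 CPM in S and 81.4, 69.9 and 92.4 CPM in LL at ZT20. The groups overlapped at the first time and were far apart at the second. Its log2FC went from 0.05 at ZT0 to -1.98 (standard error 0.19, adjusted p = 5.2e-14) at ZT20 in Bd21, and from -0.10 at ZT0 to -2.61 (standard error 0.19, adjusted p = 5.0e-19) at ZT24 in Bd21-3. At ZT8 it was -0.56 in Bd21 and -1.62 in Bd21-3, a difference of -1.06 (standard error 0.27, adjusted p = 0.0054). The call of Bd21-3 at ZT8 is lost without replicate 1 of S, with a log2FC of -1.49 (adjusted p = 1.6e-08).

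Bradi4g22220, matched to AT4G09350, was called in Bd21-3 alone. At ZT0 of Bd21-3 it was at 31.2, 24.3 and 45.8 CPM in S and 108, 126 and 116 CPM in LL, with all S libraries lower and a log2FC of -1.80 (standard error 0.24, adjusted p = 2.4e-09). In Bd21 at ZT0 it was at 56.9, 58.8 and 50.5 CPM in S and 98.8, 85.8 and 125 CPM in LL, with a log2FC of -0.87 (standard error 0.24, adjusted p = 0.0017). At ZT8 the difference of the ecotypes was -1.31 (standard error 0.34, adjusted p = 0.0067). The call of Bd21-3 at ZT8 (-1.61) is lost without replicate 1 of S, with a log2FC of -1.44 (adjusted p = 6.3e-06), and that at ZT20 (-1.5) without replicate 2 or 3 of LL or replicate 3 of S, with a log2FC between -1.48 and -1.27 and an adjusted p of 4.9e-06 to 3.9e-05. At ZT16 S and LL overlapped in both ecotypes. The member of this class without a call, matched to ARC6 (AT5G42480), a J-like protein of chloroplast division, is among the genes of low level given in the closing section.

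**Figure D5:**
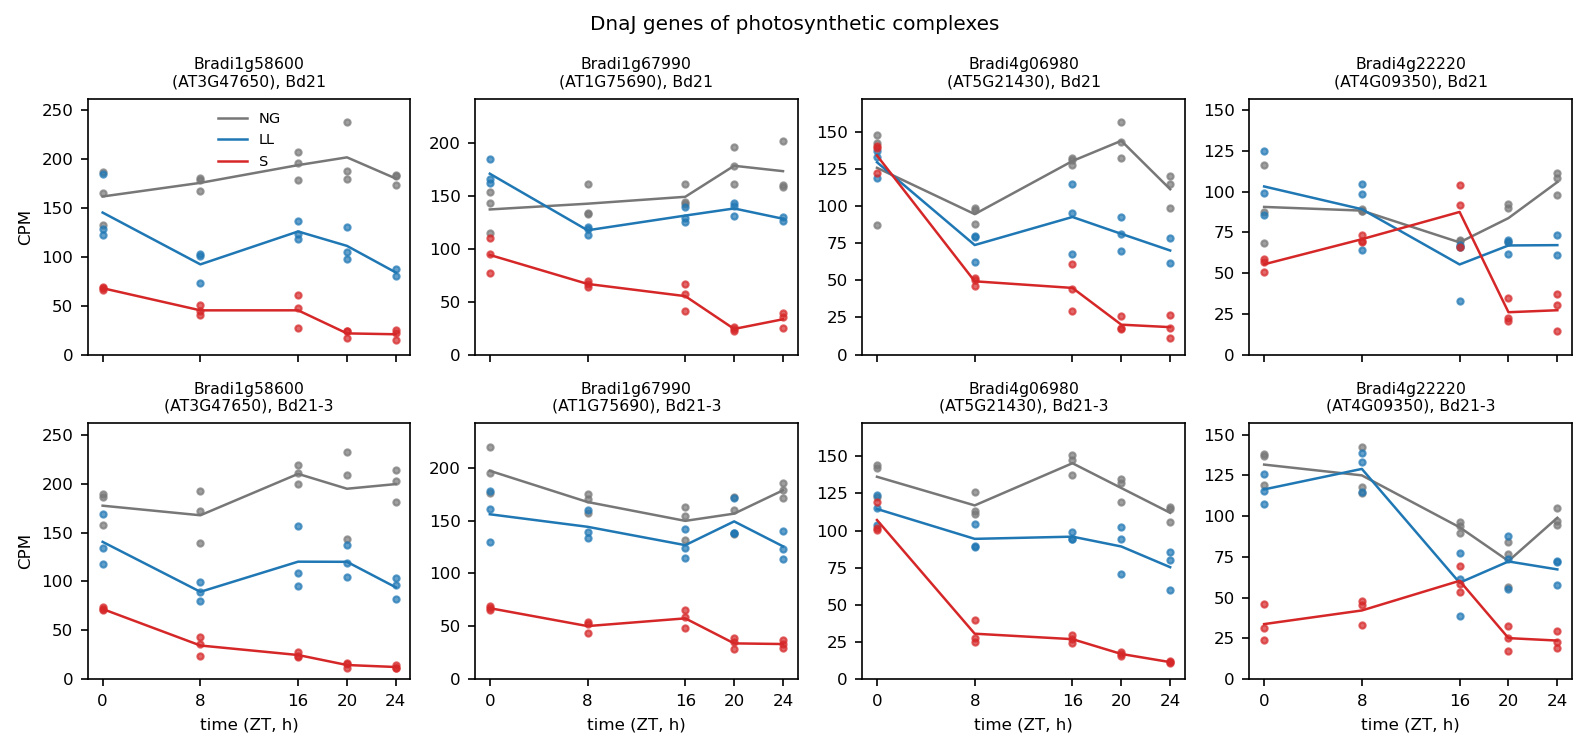
CPM of 4 DnaJ genes matched to factors of photosynthetic complexes by time (ZT, h), with Bd21 in the upper and Bd21-3 in the lower row. Points are libraries, lines join group means, and colors mark NG, LL and S. At ZT20 all S libraries lie below all LL libraries in each of the 4 genes and both ecotypes.

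Among the 7 genes matched to auxilins, which recruit Hsp70 to strip clathrin from vesicles, and to related endosome proteins, 1 fell. Bradi1g71310, matched to AT4G36520, was at 48.1, 65.4 and 77.8 CPM in S, 225 and 275 CPM in LL and 197, 229 and 228 CPM in NG of Bd21 at ZT24. S libraries were the lowest, and the log2FC over LL was -1.97 (standard error 0.19, adjusted p = 5.6e-14). In Bd21-3 at ZT24 it was -1.40 (standard error 0.17, adjusted p = 1.3e-10), under the fold limit, and the difference of the ecotypes was 0.58 (standard error 0.25, adjusted p = 0.28). Bradi4g05310, matched to AT4G12770, was not called. At ZT20 of Bd21-3 it was at 139.6, 154 and 169 CPM in S and 91.8, 91.1 and 91.8 CPM in LL, a log2FC of 0.74 (standard error 0.10, adjusted p = 9.6e-09). The gene matched to ARG1, a J protein of root gravitropism, had log2FC between -0.36 and 0.71, and the one matched to the chromatin factor ZRF1 between -0.57 and 1.28. Neither was called.

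Of the 62 genes without an assigned role, 7 rose and none fell, beside 9.12% and 11.2% of all genes tested. Their median log2FC over times was 0.08 in Bd21 and 0.14 in Bd21-3. Bradi2g13157, matched to AT5G18750, had the most calls of any member, 7 of 10. At ZT0 it was at 82.3, 103 and 119 CPM in S and 10.1, 10.4 and 7.57 CPM in LL of Bd21, and at 158, 181 and 133 CPM in S and 11.4, 9.38 and 9.65 CPM in LL of Bd21-3. S libraries were the highest in both, and NG libraries were at 13.3, 14.1 and 12.1 CPM and 13.6, 10.2 and 10.2 CPM. The log2FC at ZT0 was 3.30 (standard error 0.22, adjusted p = 6.5e-21) in Bd21 and 3.82 (standard error 0.22, adjusted p = 3.4e-24) in Bd21-3. In Bd21-3 it was called at all 5 times, down to 1.53 at ZT16, and in Bd21 at ZT0 and ZT8. The call at ZT16 is lost without replicate 2 or 3 of LL or replicate 1 of S, with a log2FC between 1.44 and 1.496 and an adjusted p of 4.6e-07 to 8.9e-07. In Bd21 at ZT16, ZT20 and ZT24 it was 1.30, 1.29 and 1.36, under the fold limit.

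Bradi1g64850, matched to AT1G56300, was called at ZT0 in both ecotypes and at ZT24 in Bd21-3 alone. At ZT0 it was at 55.8, 85.2 and 37.6 CPM in S, 4.79, 4.41 and 2.35 CPM in LL and 1.62, 3.41 and 3.41 CPM in NG of Bd21. At ZT8 it was at 25.4, 32.7 and 52.7 CPM in S, 9.31, 36.6 and 29.3 CPM in LL and 78.4, 79.9 and 78.8 CPM in NG. The S libraries were the highest at ZT0, while at ZT8 S overlapped with LL and lay below NG. The log2FC over LL at ZT0 was 3.60 (standard error 0.44, adjusted p = 3.0e-10) in Bd21 and 4.04 (standard error 0.44, adjusted p = 5.4e-12) in Bd21-3, and at ZT24 2.55 (standard error 0.44, adjusted p = 1.6e-06) in Bd21-3. The latter call is lost without replicate 2 or 3 of LL or replicate 1 or 3 of S, with a log2FC between 2.24 and 2.65 and an adjusted p of 9.8e-06 to 1.1e-04.

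Bradi3g37480, matched to AT3G14200, rose at ZT16. At ZT16 it was at 127, 77.9 and 127 CPM in S and 13.4, 15.4 and 12.6 CPM in LL of Bd21, and at 43.1, 52.7 and 48.0 CPM in S and 7.49, 9.72 and 9.23 CPM in LL of Bd21-3. At ZT8 S and LL libraries overlapped in both ecotypes. The log2FC at ZT16 was 2.88 (standard error 0.21, adjusted p = 9.9e-19) in Bd21 and 2.32 (standard error 0.21, adjusted p = 5.1e-15) in Bd21-3. At ZT24 it was -0.35 in Bd21 and 1.17 in Bd21-3, and this difference was 1.53 (standard error 0.32, adjusted p = 0.0017).

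Bradi1g10000, matched to AT4G07990, and Bradi3g40307, matched to AT1G21080, rose in 5 comparisons each. Bradi1g10000 was at 83.9, 94.6 and 86.2 CPM in S and 17.4, 15.7 and 14.6 CPM in LL of Bd21-3 at ZT0, a log2FC of 2.40 (standard error 0.13, adjusted p = 7.6e-25), and had 1.87 (standard error 0.13, adjusted p = 2.1e-19) in Bd21. Bradi3g40307 was at 337, 355 and 329 CPM in S and 87.6, 67.5 and 80.2 CPM in LL of Bd21-3 at ZT0, a log2FC of 2.11 (standard error 0.17, adjusted p = 3.7e-17), and had 1.62 (standard error 0.17, adjusted p = 1.7e-12) in Bd21. In both genes every S library lay above every LL library at all 5 times and in both ecotypes. The call of Bradi3g40307 in Bd21-3 at ZT16 (1.5) is lost without replicate 2 of LL or replicate 1 or 2 of S, with a log2FC between 1.44 and 1.48 and an adjusted p of 1.4e-09 to 2.8e-09.

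Bradi3g44010, matched to AT5G43260, rose in Bd21. At ZT16 it was at 66.3, 123 and 152 CPM in S and 23.1, 31.1 and 13.7 CPM in LL of Bd21, and at 70.2, 50.9 and 48.6 CPM in S and 22.6, 21 and 23.9 CPM in LL of Bd21-3. S was higher without overlap in both. The log2FC was 2.27 (standard error 0.31, adjusted p = 3.1e-09) in Bd21 and 1.28 (standard error 0.31, adjusted p = 3.2e-04) in Bd21-3, where the difference of the ecotypes was -0.99 (standard error 0.43, adjusted p = 0.13). In Bd21 the calls at ZT20 (1.85) and ZT24 (2.09) are lost without single libraries, any of LL or replicate 1 or 2 of S, with an adjusted p of 5.9e-06 to 5.7e-05 at ZT20 and 1.5e-05 to 9.2e-05 at ZT24. Bradi1g02800, matched to AT5G49580, was called at ZT24, where S libraries were at 107, 114 and 158 CPM in Bd21 and 147, 166 and 126 CPM in Bd21-3 and LL libraries at 41.3 and 44.3 CPM and 44.3, 49.4 and 56.1 CPM. Its log2FC was 1.52 (standard error 0.15, adjusted p = 5.1e-13) and 1.53 (standard error 0.14, adjusted p = 4.3e-15), and both calls are lost without replicate 1 of LL, or without replicate 3 of S in Bd21 and replicate 2 of S in Bd21-3, with a log2FC between 1.35 and 1.47 in Bd21 and between 1.44 and 1.45 in Bd21-3. Bradi3g45010, matched to AT5G06130, is among the 5 members with the highest mean CPM in NG, and its log2FC stayed between -0.18 (Bd21, ZT8) and 0.39 (Bd21-3, ZT0).

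LL against NG compares plants in air at lowered and normal light, and shares the LL libraries with the contrasts above. Few DnaJ genes met the call. In Bd21, 2 members did so with a higher level in LL at some time, where 1.12% of all genes were, and 0 lower, where 1.31% were. In Bd21-3, 1 was higher, beside 1.12% of all genes, and 0 lower, beside 1.58%. More of the 112 members tested passed an adjusted p under 0.05 alone, with no limit on the fold. By that rule 7 members were higher in LL of Bd21 at ZT0 (1.68% of all genes), 20 at ZT8 (16.3%), 14 at ZT16 (9.54%), 21 at ZT20 (12.2%) and 25 at ZT24 (16.8%). In the same ecotype 2 were lower at ZT0 (2.11% of all genes), 15 at ZT8 (17.9%), 10 at ZT16 (10.9%), 16 at ZT20 (16.7%) and 15 at ZT24 (23.6%). In Bd21-3, 0 were higher at ZT0 (0.00415% of all genes), 23 at ZT8 (14%), 25 at ZT16 (15.9%), 18 at ZT20 (10.3%) and 28 at ZT24 (15.7%). There, 0 were lower at ZT0 (0.0124% of all genes), 14 at ZT8 (16.3%), 19 at ZT16 (19%), 17 at ZT20 (14.6%) and 22 at ZT24 (19.5%). At an unadjusted p under 0.05 in either direction, limma gave 30 to 49 members at single times in Bd21 and 6 to 62 in Bd21-3. With edgeR the calls at single times were 0 to 2 in Bd21 and 0 to 1 in Bd21-3. Bradi3g52190, matched to AT5G16650, was at 55.1, 27.8 and 25.3 CPM in LL and 10.7, 7.45 and 7.33 CPM in NG of Bd21 at ZT8, and at 21.6, 26.0 and 28.9 CPM in LL and 5.07, 7.45 and 8.38 CPM in NG of Bd21-3. LL libraries were the higher ones in both ecotypes. The log2FC of LL over NG was 1.90 (standard error 0.27, adjusted p = 3.7e-08) and 1.75 (standard error 0.27, adjusted p = 4.1e-07). S libraries at that time were at 9.67, 15.6 and 18.4 CPM and 11.9, 12 and 10.3 CPM, lower than every LL library. Bradi3g40307 was called in Bd21 at ZT24, at 243 and 243 CPM in LL and 61.5, 68.9 and 78.9 CPM in NG, a log2FC of 1.79 (standard error 0.19, adjusted p = 2.3e-11).

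Whether the response to submergence changed between the 5 times was asked by an F test of S over LL, called at an adjusted p under 5e-06. Each later time was also a longer submergence, so this test cannot tell time of day from hours under water. It was called for 19 members in Bd21, where 14.5% of all genes were, and for 23 in Bd21-3, where 14.5% were. A second F test asked whether a gene changed between times within a treatment by at least 1.5 on the log2 scale. In NG it was called for 8 members in Bd21 (2.19% of all genes) and 9 in Bd21-3 (2.5%), and in LL for 6 in Bd21 (3.02%) and 6 in Bd21-3 (3.23%). In S it was called for 21 members in Bd21 (16.5%) and 19 in Bd21-3 (14.6%). More members changed between times in S than in either control, as was so for all genes. Within S, time of day and hours under water cannot be told apart here either.

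The time of the highest mean, or zenith, has no test of its own. In S a later zenith is also a longer submergence. In NG it was ZT8 for 6 of the 8 members called in Bd21 and 5 of the 9 in Bd21-3. In S it was ZT0 for 8 and ZT16 for 8 of the 21 in Bd21, and ZT0 for 8 and ZT16 for 6 of the 19 in Bd21-3. Zeniths were not counted over all genes, so whether these counts are particular to the members was not tested. Bradi2g48890 was called in all 3 treatments of both ecotypes, with its zenith at ZT8 in NG and LL and at ZT16 in S. Its mean in Bd21-3 at ZT8 was 149 CPM in NG, 142 CPM in LL and 63.2 CPM in S, and at ZT16 87.3, 69.0 and 95.9 CPM. Bradi3g37480 was called in all 3 treatments of Bd21-3, with the same shift of the zenith from ZT8 to ZT16. Bradi1g06980 had its zenith at ZT24 in LL and at ZT8 in S of Bd21.

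The ER class gave no call in S over LL, and 2 of its 4 members changed between times within S. Bradi2g34950 and Bradi1g65480, both chosen after their values were seen, match ERdj3B (AT3G62600) and ERdj3A, J proteins of the ER lumen that work with the Hsp70 named BiP. Bradi2g34950 had its lowest and highest group means in S at 14.5 and 68.7 CPM in Bd21 and 13.6 and 62.6 CPM in Bd21-3, and Bradi1g65480 at 10.05 and 36.4 CPM in Bd21 and 8.57 and 28.2 CPM in Bd21-3. The highest mean was at ZT16 in all 4 cases, and the F test of limma gave an adjusted p of 1.1e-21 and 8.3e-20 for Bradi2g34950 and 2.0e-12 and 7.4e-11 for Bradi1g65480, in Bd21 and Bd21-3.

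The contrast of the ecotypes asks whether Bd21 and Bd21-3 responded differently to submergence. The difference of their log2FC of S over LL had an adjusted p under 0.05 in 3 members at ZT0 (2.73% of all genes), 12 at ZT8 (9.79%), 11 at ZT16 (11.2%), 6 at ZT20 (4.09%) and 1 at ZT24 (2.39%). These are 33 cases in 23 genes. Without 1 library these counts ran from 1 to 4 at ZT0 (lowest without replicate 2 of LL or replicate 1 of S in Bd21), from 7 to 14 at ZT16 (lowest without replicate 1 of LL in Bd21-3), from 2 to 7 at ZT20 (lowest without replicate 1 of LL or of S in Bd21 or replicate 3 of S in Bd21-3) and from 1 to 7 at ZT24 (highest without replicate 3 of S in Bd21). The smallest adjusted p belonged to Bradi2g48890 at ZT16, -1.37 (standard error 0.19, adjusted p = 2.5e-07), and Bradi3g37770 at ZT16, -1.42 (standard error 0.21, adjusted p = 8.9e-07). In both genes Bd21 had the higher log2FC. Bradi1g13640, 1 of the 3 J2 matches, had the opposite sign, 0.59 (standard error 0.14, adjusted p = 0.0032) at ZT8 and 0.59 (standard error 0.14, adjusted p = 0.0028) at ZT16. Bradi4g41060, which was not called, had a lower log2FC in Bd21-3 (-1.47) than in Bd21 (-0.81) at ZT0, a difference of -0.66 (standard error 0.15, adjusted p = 0.0043), and differed by -0.83 (standard error 0.15, adjusted p = 4.8e-05) at ZT8, where the log2FC was 0.41 in Bd21 and -0.42 in Bd21-3.

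Compared directly in S, 1 member met the call with a higher level in Bd21 at some time, where 1.33% of all genes were, and 0 lower, where 0.668% were. In LL 1 was higher, beside 0.722% of all genes, and 0 lower, beside 0.282%. At an unadjusted p under 0.05 in either direction, limma gave 25 to 44 members at single times in S and 10 to 18 in LL. The member higher in both cases was Bradi2g39530, matched to AT2G18465, a gene chosen after its values were seen. Its libraries held 13.6 to 27.2 CPM (median 19.5) in S, 7.44 to 15.9 CPM (median 11.5) in LL and 8.09 to 14.5 CPM (median 10.3) in NG of Bd21. In Bd21-3 they held 0.719 to 2.92 CPM (median 1.44) in S, 0.462 to 2.02 CPM (median 1.17) in LL and 0.120 to 4.64 CPM (median 0.839) in NG. The ecotypes did not overlap in any treatment. In Bd21 the S libraries lay above the LL libraries at all 5 times, with a log2FC of at most 0.77 (standard error 0.25, adjusted p = 0.0076) at ZT16, and in Bd21-3 they overlapped at all 5. The log2FC of Bd21 over Bd21-3 in S was 3.40 (standard error 0.25, adjusted p = 5.3e-18) at ZT8, 3.36 (standard error 0.25, adjusted p = 7.6e-18) at ZT16, 2.99 (standard error 0.25, adjusted p = 1.4e-15) at ZT20 and 3.18 (standard error 0.25, adjusted p = 9.1e-17) at ZT24, and in LL 2.71 (standard error 0.28, adjusted p = 5.9e-12) at ZT24. Reads of both ecotypes had been aligned to the genome of Bd21, and a part of mapping in this difference was not tested.

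The other genes of the Hsp70 cycle were taken from lists by their Arabidopsis match. Of 19 genes of the Hsp70 family, 7 rose in S over LL at some time and 1 fell, with a median log2FC over times of 0.72 in Bd21 and 0.59 in Bd21-3. Bradi2g23250, matched to a cytosolic HSP70 (AT3G12580), had a log2FC of 7.48 in Bd21 at ZT8 (standard error 0.55, adjusted p = 1.0e-18). Of 8 nucleotide exchange factors 2 rose and 1 fell, and those that rose both match Fes1A, which frees clients from cytosolic Hsp70. Bradi1g03590 had 3.04 in Bd21 at ZT16 (standard error 0.23, adjusted p = 4.5e-18). Of 9 Hsp100 disaggregases, which pull proteins out of aggregates together with Hsp70, 3 rose and 1 fell. Bradi2g19540, matched to HSP101, had 7.0 in Bd21-3 at ZT0 (standard error 0.57, adjusted p = 6.1e-17). Of 11 genes of Hsp90 and Hop, which take clients over from Hsp70, 5 rose and 0 fell, led by Bradi5g02037 (HSP90.1) with 7.41 in Bd21 at ZT8 (standard error 0.47, adjusted p = 1.9e-21). Of 24 heat shock factors, the transcription factors of these genes, 8 rose and 1 fell, led by Bradi1g08891 (HSFA2) with 8.56 in Bd21-3 at ZT0 (standard error 0.50, adjusted p = 1.2e-23). The gene named from each list is the one with its largest log2FC in size. The median log2FC over times in Bd21 and Bd21-3 was 0.23 and 0.11 for exchange factors and 0.23 and 0.04 for Hsp100. It was 0.96 and 0.82 for Hsp90 and Hop and 0.57 and 0.72 for heat shock factors. Beside these lists, 11 of the 112 DnaJ genes rose and 12 fell, with a median log2FC of S over LL between -0.06 and 0.29 at single times. Over all genes tested, 9.12% rose and 11.2% fell. No test of the difference between lists was made.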

How the data were processed

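The values the authors deposited for the 89 libraries are a signal, CPM made from read counts and scaled to an effective library size with edgeR. The labels and methods name TruSeq v2 libraries, HISAT2 2.1.0, version 3.0 of the Bd21 genome, SAMtools 1.12 and HTSeq. Runs of libraries that had been sequenced repeatedly were merged. The library type does not mark strand, so antisense or overlapping genes may share reads. CPM sums ran from 843958 to 1243720 per library. All values (100%) were whole reads within 0.001, with 1 read worth 0.0608 to 0.261 CPM. The authors' own log2 fold changes and adjusted p-values in the same table were not used.

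log2(CPM + 1) of the 24109 genes that reached 1 CPM in 3 libraries was fitted with limma 3.58.1 (limma-trend, R 4.3.3), 1 term per group over all 30 groups, and the p-values of each comparison were adjusted over all genes (Benjamini-Hochberg). The fit was tested on simulated data. The pseudocount of 1 understates changes of low genes, and CPM is not per length, so levels of different genes are not compared beyond the choice of 5 genes given here. Python 3.11.15 (numpy 2.4.6, pandas 2.3.3, SciPy 1.17.1) served for all other steps.

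The members, roles and lists were chosen with earlier results of these data known. Named were all members called in S over LL, with the 12 of largest log2FC given per library, up to 6 more called in both directions or in LL over NG or with the smallest p of an ecotype difference, and the 5 with the highest mean CPM in NG. Arabidopsis matches and symbols are those of the deposited table (18 members have a symbol), and 0 members matched the RefSeq table, so no sequence was used here. Deviations of S and LL libraries with the same number correlated over 0.1 in 5 of 29 pairs and in all pairs of 0 of 10 comparisons, so the numbers were not taken as pairs. No replicates agreed within sampling noise (chi-square per degree of freedom at least 2.69). Alternatives were pseudocounts of 0.25 and 5, no filter, a filter at 15 CPM, median of ratios scaling, edgeR 4.0.16 on the recovered reads, a replicate block, fits of only the groups compared, NG as the control, an adjusted p under 0.05 alone, and each library left out.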

Additional observations from a re-analysis of the deposited data

Results flagged for a closer look

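In 22 cases the log2FC of S over LL of a named DnaJ gene differed between ecotypes by the test of the difference itself (limma, adjusted p under 0.05). Differences are given as Bd21-3 minus Bd21, with 3 libraries per group except Bd21 in LL at ZT24, and no explanation was tested.

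At ZT0 Bradi2g48890 differed by -0.65 and Bradi4g41060 by -0.66, so both had a lower log2FC in Bd21-3. At ZT8 Bd21-3 had the lower log2FC in Bradi1g06980 (-1.74), Bradi1g67990 (-0.70), Bradi2g03694 (-1.09), Bradi2g48890 (-0.72), Bradi3g44010 (-1.38), Bradi4g06980 (-1.06), Bradi4g22220 (-1.31) and Bradi4g41060 (-0.83), and the higher one in Bradi1g13640 (0.59).

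At ZT16 Bd21-3 had the lower log2FC in Bradi1g02800 (-0.60), Bradi1g06980 (-1.20), Bradi2g48890 (-1.37) and Bradi3g37770 (-1.42), and the higher one in Bradi1g13640 (0.59), Bradi3g42400 (2.39) and Bradi4g05310 (0.67). At ZT20 it was lower in Bradi3g37770 (-0.96) and higher in Bradi1g13640 (0.53) and Bradi4g05310 (0.49). At ZT24 it was higher in Bradi3g37480 (1.53).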

How the results depend on the processing

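All 79 calls held with no filter, with a filter at 15 CPM and with the replicate block, which also left the 20 counts of risen and fallen members as they were (5 risen and 1 fallen in Bd21 at ZT0, for example) and gave 2, 12, 10, 6 and 1 members with an ecotype difference. Replicate numbers did not pair the samples. No call reversed. Calls lost were 4 with median of ratios scaling (Bradi1g02800 in both ecotypes, Bradi2g13157, Bradi3g40307), 2 with a pseudocount of 0.25 (Bradi2g24680, Bradi3g42400), 6 with edgeR (Bradi1g43090, Bradi1g58600, Bradi1g67990, Bradi2g03694, Bradi2g24680, Bradi4g22220, 1 time each), 18 with a pseudocount of 5, 8 with NG as the control (Bradi5g15612 in both ecotypes, Bradi1g06980, Bradi1g43090, Bradi2g03694, Bradi2g16660, Bradi2g24680, Bradi5g26023, 1 time each) and 78 in fits of only the groups compared, which have few libraries to estimate the spread. Scaling moved the median of all genes by at most 0.0591.

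In those fits of only the groups compared, 1 member rose in Bd21 at ZT0 and 0 members were called in the other counts. With an adjusted p under 0.05 alone, 35, 31, 36, 40 and 34 members rose and 36, 23, 20, 23 and 20 fell from ZT0 to ZT24 in Bd21, and 34, 30, 39, 46 and 43 rose and 36, 31, 17, 26 and 24 fell in Bd21-3. With NG as the control, counts in Bd21 became 2 fallen at ZT0, 7 risen and 3 fallen at ZT8, 6 risen at ZT20, and 10 risen and 9 fallen at ZT24, and in Bd21-3 6 fallen at ZT0, 8 fallen at ZT8, 11 risen at ZT16, 7 risen at ZT20, and 10 risen and 8 fallen at ZT24. With a pseudocount of 5 they became 0 fallen at ZT8, 1 fallen at ZT16 and 1 risen at ZT24 in Bd21, 4 fallen at ZT20 and 1 risen at ZT24 in Bd21-3, and for LL over NG 0 at ZT8 and 0 at ZT16 in Bd21-3. A pseudocount of 0.25 gave 1 for LL over NG in Bd21 at ZT24. With edgeR they became 0 fallen at ZT8 and 1 fallen at ZT16 in Bd21, 7 risen and 5 fallen at ZT20 in Bd21-3, and 1 for LL over NG in Bd21-3 at ZT24. The cause of these shifts was not tested.

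Without 1 library, counts in Bd21 ran from 0 to 1 fallen at ZT8, 1 to 2 fallen at ZT16, 0 to 1 risen at ZT20 and 1 to 4 risen at ZT24, and in Bd21-3 from 3 to 5 fallen at ZT0, 1 to 5 fallen at ZT8, 4 to 9 fallen at ZT20 and 3 to 5 fallen at ZT24. Ecotype differences ran from 1 to 4 at ZT0, 7 to 14 at ZT16, 2 to 7 at ZT20 and 1 to 7 at ZT24. Reads per library set the limit for genes near 1 CPM, where 1 read is worth up to 0.261 CPM. LL over NG and the F tests were not repeated without single libraries.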

Other observations

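In 17 comparisons of 7 DnaJ genes the log2FC of S over LL and its adjusted p passed the limits while the means stayed under 15 CPM, and 4 of these genes have no call at all. The genes named here were chosen after their values were seen. Bradi1g17040, matched to AT4G02100, made up 8 of the 17. Its mean was 7.61 CPM in LL and 0.652 CPM in S of Bd21 at ZT16 (log2FC -2.34, standard error 0.31, limma adjusted p = 1.6e-09), and 7.69 and 0.711 CPM in Bd21-3 at ZT8 (-2.35, standard error 0.31, adjusted p = 1.4e-09). The ARC6 match Bradi3g02190 had means of 9.62 CPM in LL and 2.31 CPM in S of Bd21-3 at ZT20 (-1.69, standard error 0.19, adjusted p = 2.0e-11). 2 genes of small chloroplast J proteins were higher in S: Bradi1g63810, a second J20 match, with 8.28 CPM in S and 0.601 CPM in LL of Bd21-3 at ZT0 (2.54, standard error 0.36, adjusted p = 1.7e-08), and the J8 match Bradi1g30980 with 9.89 and 0.603 CPM in Bd21 at ZT16 (2.52, standard error 0.44, adjusted p = 1.9e-06). In Bd21-3 at ZT0 the J20 match Bradi2g03694 was called in the opposite direction to Bradi1g63810.

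Bradi2g43040, matched to AT1G71000, was highest at midday in NG. In Bd21 it was at 3.85, 3.48 and 4.89 CPM at ZT8 and listed at 0 in all 3 libraries at ZT0, and in Bd21-3 at 4.62, 4.75 and 2.84 CPM at ZT8 and listed at 0 in all 3 libraries at ZT20. These values rest on 34 to 40 reads per library at ZT8 in Bd21 and 22 to 37 in Bd21-3. At ZT8 LL libraries were at 0.149, 0.789 and 1.08 CPM in Bd21 and 0.614, 0.710 and 1.03 CPM in Bd21-3, lower than every NG library of that time.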
